A study of Homo sapiens with 34 samples.

Results

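PRR4, C1orf87 and GHRHR are 3 of the 26336 genes counted in a study of human prostate cell lines, and they were selected on their measured reads in VCaP cells, where they were near zero or lowered in serum depleted of hormone. The rule named the 3 genes and set no numeric threshold. All 3 had a row in the table of read counts. The values that chose them are their VCaP reads in media without serum hormone, set beside the other VCaP media, so VCaP comparisons of stripped, control and androgen medium are given as a description with no test. The label of a hormone switch fitted the genes unequally: PRR4 was at 0 reads in VCaP with control serum too, C1orf87 was low there, and GHRHR had its highest level there.

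The study sequenced poly(A) RNA of 34 libraries in 17 groups. RWPE is a line of prostate epithelium that does not form tumors, VCaP and MDAPCa2a came from bone metastases, and LNCaP came from a lymph node metastasis and stands for early adenocarcinoma in the study. Surfaces were culture plastic or plates carrying a coat of amorphous calcium phosphate (ACP), the study's stand-in for bone mineral. Media were control medium, medium with serum stripped by charcoal and dextran, which removes steroids, or stripped medium with androgen at a labelled 100 mM. Titles call the androgen DHT and the protocol calls it testosterone, so the agent is not settled here. Each of the 4 lines is 1 established line, and nothing says that replicates were separate experiments, so p-values measure the spread between these libraries only.

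VCaP, LNCaP and MDAPCa2a control media held fetal bovine serum, and RWPE grew without serum in keratinocyte medium with bovine pituitary extract. VCaP was sequenced on plastic in control medium (2 libraries) and stripped medium (1 library), and on ACP in control, stripped and androgen medium (2 libraries each). LNCaP had the same 5 groups with 2 libraries each. MDAPCa2a had plastic control, plastic stripped, ACP stripped and ACP androgen with 2 libraries each, and its plastic alone carried a protein coating. RWPE had plastic control (2 libraries), ACP control (2 libraries) and ACP with androgen (3 libraries), and no stripped group. The sample labels put plastic control in continuous culture and all other groups at day 4, so time in culture and the plastic control group cannot be told apart.

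PRR4 encodes a proline-rich protein secreted by lacrimal and salivary glands, and its gene sits among the bitter taste receptors. C1orf87 encodes a protein with EF-hand motifs, the helix-loop-helix fold that binds calcium in calmodulin and its relatives. GHRHR is the receptor of growth hormone-releasing hormone, a class B G protein-coupled receptor of pituitary somatotrophs that signals through Gs, adenylyl cyclase and cAMP. Steroid receptors, which androgen and estrogen activate, regulate genes by binding short DNA elements near or far from their targets, and VCaP is known for the TMPRSS2-ERG fusion that places ERG under androgen control.

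The RefSeq promoters of the 3 genes (GRCh38.p14) are shown because the genes were chosen together for their response to hormone, and they share little in base composition or motifs. Of the 3 genes, 3 matched the promoter table. Each run is the 250 bases before the annotated start, written 5′ to 3′ on the strand of the gene, and capitals mark matches to a searched motif. The counts themselves were made on hg19, so these positions describe the reference and not the deposited table. PRR4 lies on the minus strand at chr12:10849476-10849725, C1orf87 on the minus strand at chr1:60073771-60074020, and GHRHR on the plus strand at chr7:30963703-30963952.
PRR4: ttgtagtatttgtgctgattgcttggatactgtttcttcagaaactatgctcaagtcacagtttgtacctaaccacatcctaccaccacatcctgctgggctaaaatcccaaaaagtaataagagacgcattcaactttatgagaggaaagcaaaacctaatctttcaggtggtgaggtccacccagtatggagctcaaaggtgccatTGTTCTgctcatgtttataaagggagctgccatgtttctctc
C1orf87: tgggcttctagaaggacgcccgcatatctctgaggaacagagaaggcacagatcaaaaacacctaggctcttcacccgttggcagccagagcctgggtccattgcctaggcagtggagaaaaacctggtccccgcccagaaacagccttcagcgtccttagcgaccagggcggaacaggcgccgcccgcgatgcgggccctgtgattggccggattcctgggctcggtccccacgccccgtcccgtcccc
GHRHR: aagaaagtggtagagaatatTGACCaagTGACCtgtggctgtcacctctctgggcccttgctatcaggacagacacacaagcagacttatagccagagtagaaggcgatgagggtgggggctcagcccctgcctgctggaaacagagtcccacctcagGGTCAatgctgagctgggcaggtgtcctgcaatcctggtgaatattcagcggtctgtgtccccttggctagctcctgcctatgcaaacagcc

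Both strands were searched for 3 motifs. AGAACA is the core of the element read by androgen and glucocorticoid receptors, and it reads TGTTCT on the opposite strand. GGTCA is the core of the estrogen receptor element, and it reads TGACC on the opposite strand. TGTTTAC is a forkhead motif, and it reads GTAAACA on the opposite strand. The PRR4 promoter held 1 match, TGTTCT, 42 bases before the start. The GHRHR promoter held 3 matches to the estrogen receptor core, TGACC at 230 and 222 bases and GGTCA at 92 bases before the start, and none of these overlapped another motif. The C1orf87 promoter held none of these letters in this window. Of 35116 promoters of the same length, 12.4% held at least 1 match to the first motif, 32.6% to the second and 2.98% to the third. A match to the first or second is thus common, and any match describes letters only. The share of promoters with 3 matches to the estrogen receptor core was not counted. Base composition set the promoters apart from each other, with 42.4% G and C and 1 CpG for PRR4, 63.2% and 17 CpG for C1orf87, and 55.2% and 2 CpG for GHRHR, against medians of 58.0% and 11 over all promoters.

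Library totals ran from 15.4 to 44.8 M reads, and from 34.9 to 44.8 M in the 8 plastic control libraries. Levels are CPM (reads per M reads) on TMM-scaled library sizes, given as mean ± SD, and a group at 0 reads is given the limit that 3 reads over the group would set. These limits and the exact 95% intervals of ratios cover counting error only. CPM is not corrected for gene length, so levels are compared within a gene and not between genes. Fewer cells with a transcript and less transcript per cell cannot be told apart in such bulk RNA.

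PRR4 was read in VCaP almost solely where androgen had been added. On ACP with androgen the libraries held 800 and 1137 reads, or 34.6 and 49.8 CPM (42.2 ± 10.7, SD, n = 2). VCaP held 0 and 0 reads in plastic control, 1 in plastic stripped, 0 and 0 in ACP control, and 0 and 1 in ACP stripped. Both androgen libraries thus stood far above the other 7 VCaP libraries. Androgen over stripped medium came to a ratio of 1894 (95% counting interval 339 to 74834, with 1 read in the lower group), and the level with androgen was at least 625-fold higher than in ACP control and at least 1065-fold higher than in plastic control. Stripping itself could not lower a gene already at 0 reads in control serum, where the limits were 0.0396 CPM on plastic and 0.0675 CPM on ACP. PRR4 was the only gene among 26336 with at least 100 reads in both VCaP androgen libraries and at most 1 in each of the other 7, a pattern set after its values had been seen.

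C1orf87 was low in VCaP control medium, lower still after stripping, and above control with androgen. Plastic control held 20 and 17 reads (0.496 ± 0.123 CPM, SD, n = 2) and ACP control 10 and 9 reads (0.429 ± 0.0572 CPM, SD, n = 2). Stripped medium left 2 reads in the plastic library (0.0961 CPM) and 0 and 0 reads on ACP (limit 0.0668 CPM). These few reads put control over stripped at 5.08 (1.31 to 43.5) on plastic and at least 6.40-fold on ACP. With androgen the libraries held 113 and 121 reads, or 5.10 ± 0.290 CPM (SD, n = 2). That level was at least 76.3-fold above stripped medium and 11.9-fold above ACP control (7.46 to 20.1), or log2 3.58 ± 0.54 (SE) in the fit. No VCaP library outside the androgen group came near it.

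GHRHR had another order, highest in control serum, lowest in stripped serum and in between with androgen. It held 189 and 244 reads in plastic control (5.70 ± 0.259 CPM, SD, n = 2) and 167 and 85 reads in ACP control (5.76 ± 2.95 CPM, SD, n = 2). The plastic stripped library had 0 reads (limit 0.144 CPM), so control was at least 39.6-fold higher there. ACP stripped libraries had 11 and 20 reads (0.678 ± 0.200 CPM, SD, n = 2), and control over stripped was 8.21 (5.64 to 12.3), a fitted log2 difference of stripped against control of -3.05 ± 0.48 (SE). With androgen GHRHR held 63 and 60 reads (2.68 ± 0.0695 CPM, SD, n = 2), 3.88-fold above stripped (2.60 to 5.95) and 0.472 of ACP control (0.378 to 0.588). The ACP control libraries themselves lay at 7.84 and 3.67 CPM, so the distance from androgen to control rests on how far apart these replicates are. The fitted log2 difference of androgen against control, -1.09 ± 0.43 (SE), was -0.42 without ACP control replicate 1 and -1.54 without replicate 2.

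**Figure D1:**
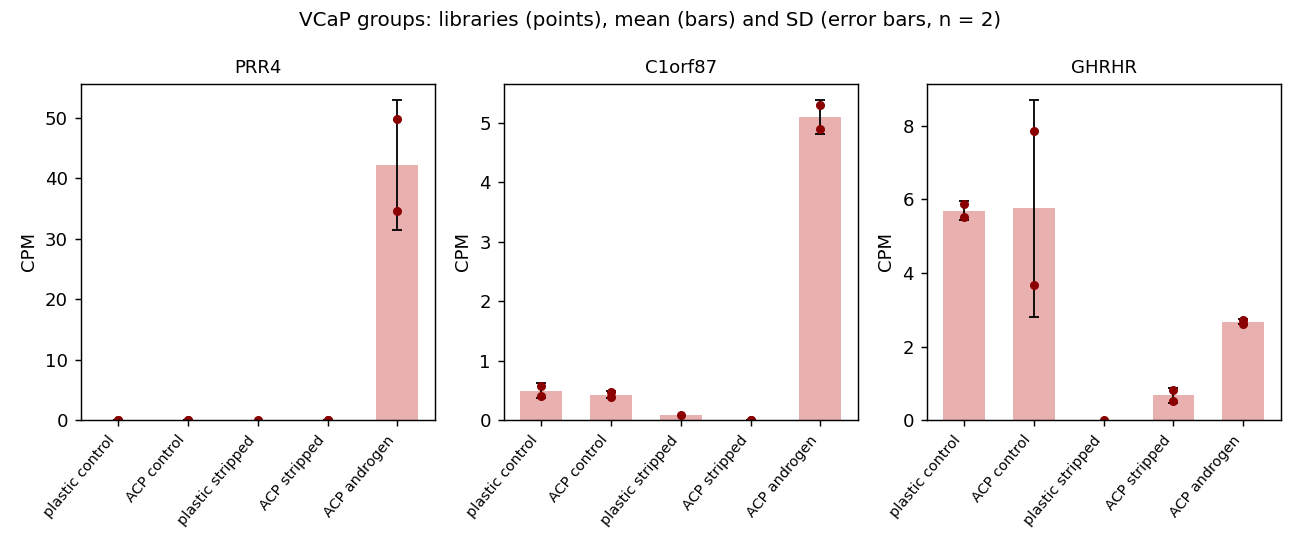
Levels of PRR4, C1orf87 and GHRHR in CPM (vertical axes, linear, different in each panel) in the 5 VCaP groups; points are libraries, bars means and error bars SD, and plastic stripped has 1 library. PRR4 stands at 34.6 CPM or more only with androgen, C1orf87 passes its control level there, and GHRHR with androgen lies between stripped and control.

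Among all 15614 genes tested in VCaP with edgeR's quasi-likelihood test and Benjamini-Hochberg adjustment, 0.890% passed the threshold of 0.05 for stripped against control on plastic, 0.820% for the same on ACP and 17.5% for androgen against stripped. The rule and these comparisons share libraries, so nothing is read from the members against these shares. The comparisons also share libraries with each other, the stripped ones with the androgen one.

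The surface was not used to choose the genes. In control medium on ACP against plastic, GHRHR differed by log2 0.07 ± 0.42 (SE, edgeR adjusted p 0.975) and C1orf87 by -0.16 ± 0.54 (SE, edgeR adjusted p 0.945), while PRR4 was at 0 reads on both, and 0.0448% of genes passed (7 of 15614 with edgeR, 40 with DESeq2, 1123 at an unadjusted p under 0.05). In stripped medium GHRHR held 11 and 20 reads on ACP against 0 in the plastic library, and C1orf87 held 0 and 0 against 2. These stripped reads are among the values that chose the genes, so the surface difference in stripped medium is given as a description with no test. It also rests on 1 plastic library.

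Outside VCaP, PRR4 and C1orf87 were close to absent. PRR4 held 4 and 4 reads in LNCaP on ACP with androgen (0.134 ± 0.00540 CPM, SD, n = 2) and 0 in the other 8 LNCaP libraries. Its next levels were 1 and 3 reads in MDAPCa2a on plastic in stripped serum and 1 and 1 in MDAPCa2a with androgen, and the highest RWPE library held 1 read. The LNCaP libraries with androgen thus stood above the rest of their line, by at least 2.66-fold over LNCaP ACP stripped. The level in LNCaP with androgen was 0.318% of that in VCaP, where ERG, a gene of the VCaP fusion, was read in LNCaP at 0.0852% of its VCaP level. In MDAPCa2a with androgen the shares were 0.127% for PRR4 and 0.192% for ERG. Whether reads of VCaP libraries entered those of other lines was not tested.

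C1orf87 showed up in the other lines mostly on plastic in control medium, with 0 and 3 reads in RWPE, 0 and 1 in LNCaP, and 1 and 2 in MDAPCa2a. LNCaP with androgen added 0 and 1 reads, and all other libraries of these lines were at 0. The plastic control shares of the VCaP level ran from 2.21% in LNCaP to 8.80% in MDAPCa2a, against 0.243% to 0.446% for ERG over the 3 lines. These C1orf87 shares rest on few reads. VCaP over LNCaP was 45.2 (95% counting interval 7.63 to 1834), a range that holds the ERG ratio of 224. The ratios were 12.6 (3.98 to 63.7) for RWPE and 11.4 (3.60 to 57.6) for MDAPCa2a, where those of ERG were 352 and 412. Transcripts of liver and blood (FGG, APOA1 and CD74, 3 of 3 detected) were picked because an earlier analysis had seen them in plastic control libraries. Their higher level in this group thus follows from the choice and is a description only. They summed to 7.56 to 22.0 CPM in the plastic control libraries of the 4 lines and 0 to 4.95 CPM in all other groups. In VCaP they summed to 12.3 to 20.2 CPM in plastic control and 0.817 to 4.95 CPM elsewhere. Their part in the reads of C1orf87 and GHRHR in plastic control was not tested.

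**Figure D2:**
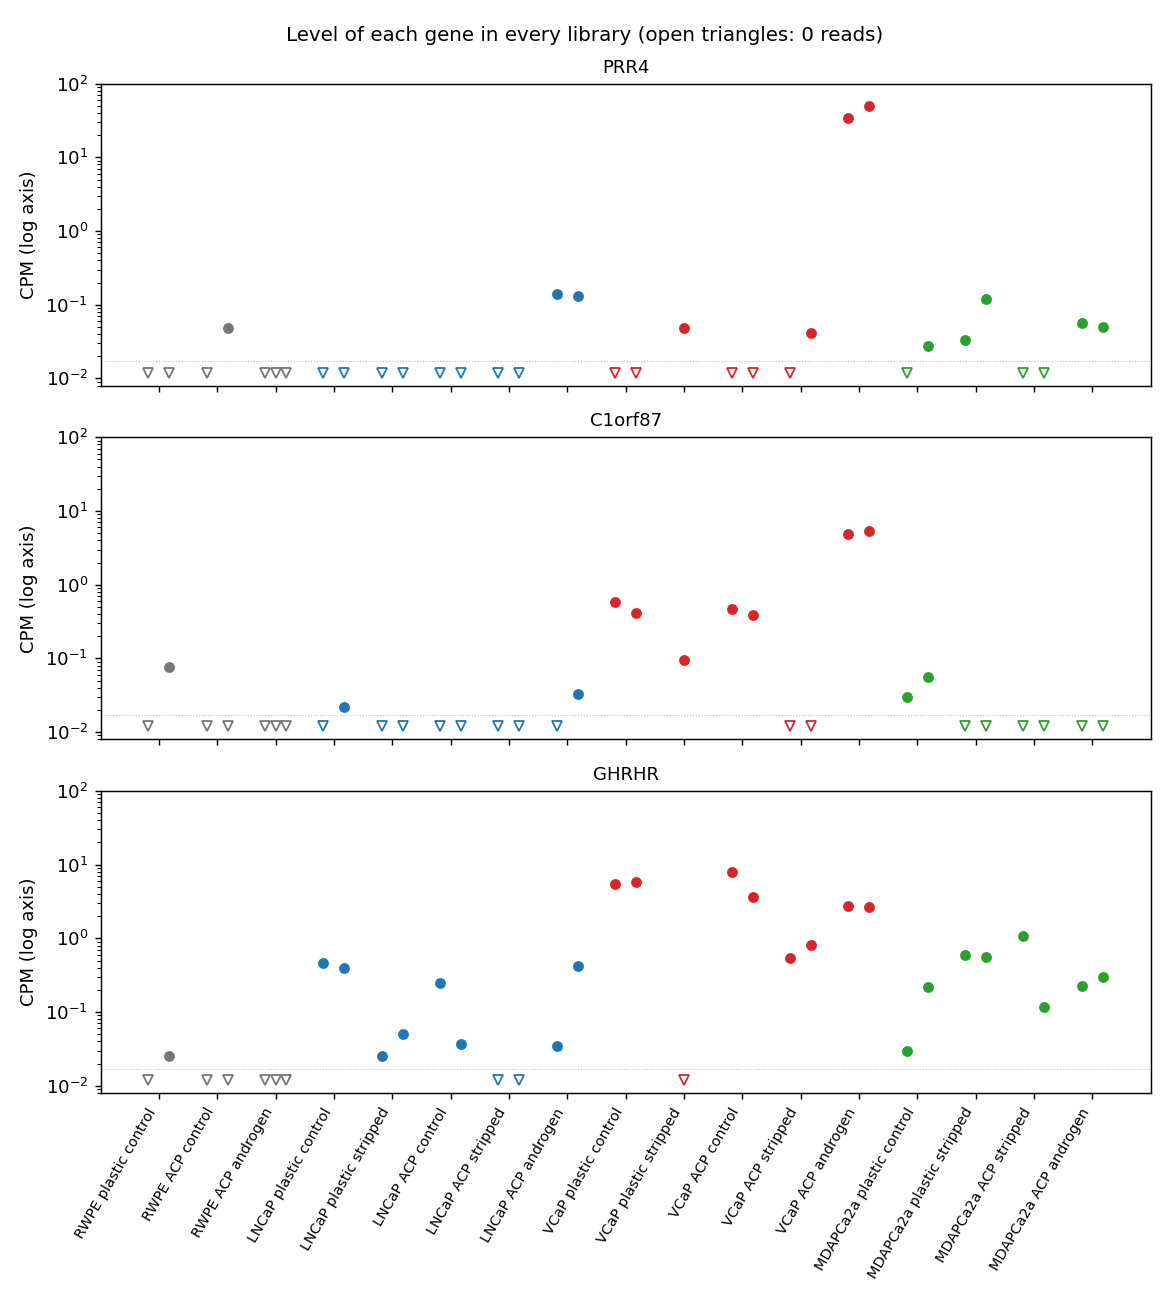
Level of each gene in each of the 34 libraries (vertical axis, CPM, log scale; horizontal axis, the 17 groups); colors stand for cell lines, and open triangles under the dotted line are libraries with 0 reads, placed there for display only. PRR4 and C1orf87 lie under 0.2 CPM in every library outside VCaP, and GHRHR is spread over VCaP, LNCaP and MDAPCa2a with a single read in RWPE.

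On ACP with androgen, the reads of all 3 genes were higher in every VCaP library than in any library of the other lines. The genes were chosen for their VCaP reads with the androgen values known, and PRR4 and C1orf87 passed the count filter in the fit of all lines through VCaP libraries alone, so these differences are described with no test. PRR4 in VCaP was 314-fold above LNCaP (95% counting interval 159 to 728) and 785-fold above MDAPCa2a (217 to 6489, with 2 reads in MDAPCa2a). C1orf87 was 303-fold above LNCaP (53.9 to 12037, with 1 read in LNCaP) and at least 63.2-fold above MDAPCa2a, which held 0 reads. GHRHR was 11.4-fold above LNCaP (6.54 to 21.5) and 9.97-fold above MDAPCa2a (5.24 to 21.3), so it was the gene with the smallest ratio to both lines. RWPE held 0 reads of all 3 genes there, and VCaP was at least 775-fold higher for PRR4, 93.7-fold for C1orf87 and 49.2-fold for GHRHR. Lines differ widely: of 17323 genes tested with edgeR, 56.0% passed between VCaP and LNCaP, 51.4% between VCaP and MDAPCa2a and 67.4% between VCaP and RWPE, and nothing is read from the 3 genes against these shares. The GHRHR difference from LNCaP, log2 3.50 ± 0.81 (SE) in that fit, rested on the LNCaP libraries, at 2.64 without replicate 1 and 6.10 without replicate 2.

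**Figure D3:**
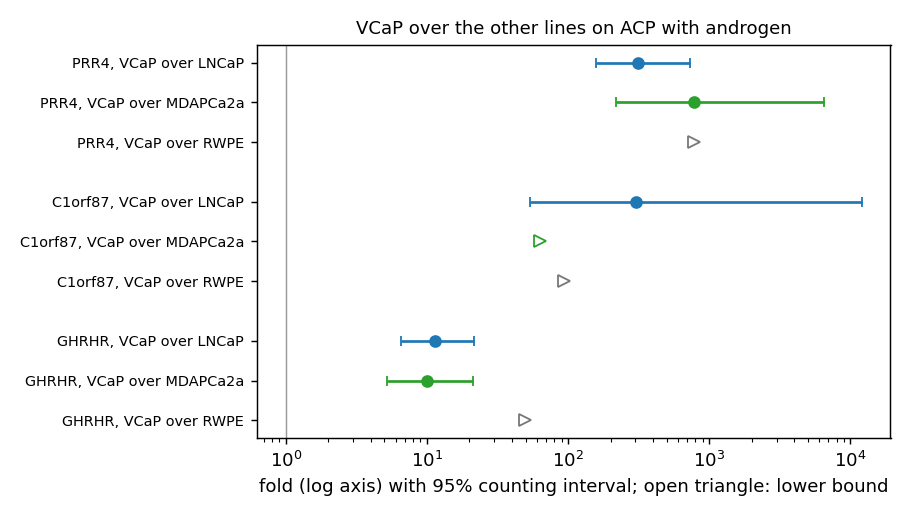
Ratio of the VCaP level to that of each other line on ACP with androgen (horizontal axis, log scale) for the 3 genes; points are ratios with exact 95% counting intervals, and open triangles are lower bounds where the other line had 0 reads. All 9 lie to the right of 1, from 9.97 for GHRHR over MDAPCa2a to 785 for PRR4 over the same line.

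GHRHR was also read in LNCaP at a lower level, and it was lowest in stripped serum there on both surfaces, while on ACP its mean was highest with androgen. Plastic control held 22 and 18 reads (0.431 ± 0.0477 CPM, SD, n = 2), 7.56% of the VCaP level, where ERG was at 0.446%. Plastic stripped held 1 and 1 reads (0.0383 ± 0.0179 CPM, SD, n = 2), a control over stripped ratio of 12.6 (3.28 to 108). On ACP it held 7 and 1 reads in control, 0 and 0 in stripped (limit 0.0504 CPM) and 1 and 13 with androgen, so replicates of a group differed widely. GHRHR passed the count filter in LNCaP through plastic control and the androgen library with 13 reads, and through no stripped library. Comparisons that use plastic control or androgen are therefore tilted toward these groups and are given with no p. No LNCaP comparison of GHRHR passed the threshold in the main fit. The log2 difference of stripped against control on plastic was -3.47 ± 1.23 (SE, 9.45% of genes called). On ACP control was at least 2.87-fold above stripped (edgeR adjusted p 0.206, 5.37% called) and androgen at least 4.66-fold above stripped (7.73% called). Without the filter on low counts the plastic difference and the androgen difference passed. ACP against plastic gave -1.45 ± 0.96 in control medium (SE, 12.6% called). In stripped medium 0 and 0 reads on ACP stood beside 1 and 1 on plastic (edgeR adjusted p 0.490, 6.12% called).

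MDAPCa2a had the opposite order on plastic, with GHRHR at 1 and 8 reads in control and 18 and 14 in stripped serum. The levels were 0.125 ± 0.135 and 0.581 ± 0.0228 CPM (SD, n = 2 each). GHRHR passed the count filter in MDAPCa2a through stripped libraries alone. Comparisons of stripped serum with control or androgen are therefore tilted toward stripped serum and are given with no p, and none passed the threshold. Stripped over control was 4.52 (2.11 to 10.8), or log2 2.18 ± 0.95 in the fit (SE), and 1.58% of genes passed. The androgen-induced genes FKBP5, KLK2, KLK3 and TMPRSS2 also had higher means in this stripped group. FKBP5 lay at 824 CPM against 197 in control, and KLK3 at 8081 against 5453. In LNCaP on plastic the same genes were lower in stripped serum, with KLK3 at 129 CPM against 2838. How far stripping removed hormone in MDAPCa2a was not tested. On ACP the stripped libraries held 17 and 2 reads (0.599 ± 0.682 CPM, SD, n = 2) and the androgen libraries 4 and 6 (0.266 ± 0.0522 CPM, SD, n = 2). Androgen against stripped was -1.17 ± 1.01 (SE) and was 1.17 without ACP stripped replicate 1. In that comparison the share called was 0% (0 with edgeR, 3 with DESeq2, 236 at an unadjusted p under 0.05). ACP against plastic in stripped serum was 0.11 ± 0.87 (SE, edgeR adjusted p 0.955), with 0.00734% of genes called, and was -2.23 without the same library.

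The difference between the effects of stripping on plastic in MDAPCa2a and LNCaP was tested after these values had been seen. It was log2 5.63 ± 1.48 for GHRHR (SE, edgeR adjusted p 0.0565), where 1.81% of genes passed, and so missed the threshold. FKBP5, KLK2, KLK3 and TMPRSS2 also moved in opposite directions in these lines, so a difference here is not particular to GHRHR. PRR4 and C1orf87 gave no usable value there, with at most 4 reads in any of these groups. Over all groups GHRHR ran from 5.76 CPM in VCaP ACP control, which overlapped plastic control at 5.70, through 2.68 in VCaP with androgen and 0.678 in VCaP ACP stripped, to 0.599 and 0.581 in the stripped groups of MDAPCa2a. The last 3 of these overlapped in their libraries. Below them came LNCaP plastic control at 0.431, and all remaining groups lay at 0.266 CPM or less.

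Of the genes with a row beside or over the 3 loci, 3 could be tested for androgen against stripped medium in VCaP, and none of them passed. PRH1-PRR4, a readthrough transcript that overlaps PRR4, held 8 to 28 reads in each VCaP library and 28 and 14 with androgen (log2 0.77 ± 0.65 against stripped, SE, edgeR adjusted p 0.432). Reads in exons common to both rows could go to either or be dropped, and the counting mode is not given in the sources used here. PRH1, a salivary proline-rich protein gene, held at most 1 read and the bitter taste receptor TAS2R10 at most 2 in any VCaP library. CYP2J2, an arachidonic acid epoxygenase beside C1orf87, held 377 to 789 reads, with -0.06 ± 0.29 for androgen against stripped (SE, edgeR adjusted p 0.904). Next to GHRHR, the deubiquitinase gene MINDY4 (listed as FAM188B) held 6 to 45 reads (edgeR adjusted p 1.0), and the water channel gene AQP1 held 11 and 11 in plastic control and 1 to 3 elsewhere in VCaP.

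The genes most like each member were ranked by Pearson's r of log2(CPM + 1) over the 17 group means, among 15550 genes reaching 1 CPM in a group. These points share lines and media, so r is a description. Among the 5 genes most like PRR4 were PF4, a platelet chemokine gene (r = 0.997), CST4, a salivary cystatin gene, LINC01443 and TCN1, a vitamin B12 carrier gene secreted in saliva. In VCaP with androgen PF4 reached 1.92, CST4 9.23 and TCN1 3.45 CPM, and each lay under 0.3 CPM in all other VCaP groups. For C1orf87 they were RHOJ, a small GTPase gene (r = 0.991), IGSF23, FBXW10, the cystatin gene CST2 and the pseudogene KRT8P41. CST2 went from 6.55 CPM in ACP control and 0.808 in ACP stripped to 261 with androgen. GHRHR had MRGPRX3, a receptor of the Mas-related family (r = 0.939), MAGEB17, the readthrough RBM14-RBM4, the transcription factor gene DMRT2 and ATP8B4. ATP8B4 lay at 25.9 CPM in ACP control, 3.80 in stripped and 5.92 with androgen. The lists depend on the scale: 4, 2 and 2 of the 5 were kept with 0.1 added in place of 1, and 0, 0 and 0 with Spearman's rank correlation.

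**Figure D4:**
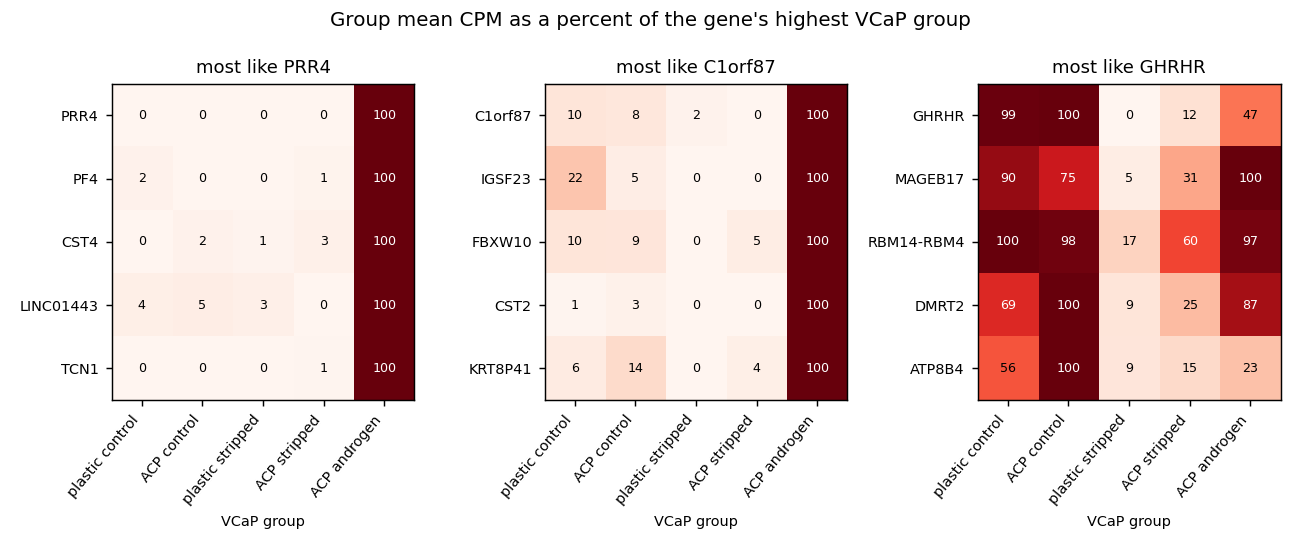
Group mean CPM of each member and of the genes ranked 2 to 5 by likeness to it (rows) in the 5 VCaP groups (columns), as a percent of the highest VCaP group of the same gene. Those like PRR4 and C1orf87 peak with androgen, and those like GHRHR are high in both control groups, low in plastic stripped and vary with androgen.

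Lists tied to the roles of the 3 genes were then followed in VCaP for androgen against stripped medium on ACP, where the median over all genes was log2 -0.03 and, as given above, 17.5% were called. Because plastic stripped has 1 library, 1 library with enough reads lets a gene into the VCaP fit. CST4, PTH2R and EFCAB1 entered through androgen libraries alone, as did the uncalled PIP at 3 and 13 reads, and TAS2R43 through stripped libraries. Their calls and the list medians are therefore tilted toward the group that let them in. Of 26 lacrimal and salivary products, a list of PRR4's kind that leaves PRR4 out, 8 could be tested, 4 rose and 0 fell, with a median of log2 3.10, or 2.46 with the gene at 0 reads in a group set at its bound. Like the other lists, it was chosen with earlier results of these data known. CST4, also among the genes most like PRR4, rose from 7 and 4 reads to 295 and 130 (log2 5.19 ± 0.75, SE), given with no p because of how it passed the filter. The antibacterial LTF, LYZ, which encodes lysozyme, and the cystatin gene CST1 also rose, and CST1 lost its call without any of the 4 libraries, LTF without stripped replicate 1 or androgen replicate 2, and LYZ without the latter. Reads of the closely similar cystatin genes CST1, CST2 and CST4 could be split between them by the counting. Acinar markers PRB1, STATH, LACRT, MUC7 and SMR3B (1 of 5 detected) summed to 1 to 4 reads with androgen and 0 in the other VCaP groups, with STATH, LACRT, MUC7 and SMR3B at 0. Of 14 bitter taste receptors, 5 were tested, 0 rose and 2 fell (TAS2R43 and TAS2R31, at most 11 and 52 reads), with a median of log2 -1.53. Neither passed with a replicate block or without stripped replicate 1, and DESeq2 called 0 of the list. TAS2R31 lost its call in 7 of 9 alternative settings.

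Of 15 genes of the growth hormone releasing axis, 6 were tested, 1 rose and 2 fell (median log2 0.01). PRLR, the prolactin receptor, rose from 28.6 ± 0.211 to 71.4 ± 8.07 CPM (SD, n = 2 each; log2 1.32 ± 0.19, SE, edgeR adjusted p 0.00325). The somatostatin receptor SSTR2, which opposes growth hormone release, went from 25 and 23 reads to 0 and 3, a log2 change of -3.95 ± 1.01 (SE, edgeR adjusted p 0.0259). Neither its call nor that of SSTR5 held without stripped replicate 1 or without androgen replicate 1. GHRH, the ligand of GHRHR, held at most 1 read in any VCaP library, and the growth hormone receptor GHR lay at 28.5 ± 8.78 CPM in stripped and 52.4 ± 26.2 with androgen (SD, n = 2 each; edgeR adjusted p 0.131). Pituitary markers GH1, PRL and POU1F1 (1 of 3 detected) were at 0 in VCaP except for 2 reads of POU1F1 in ACP stripped. Among class B receptors 6 of 14 were tested, 2 rose (PTH2R and GLP2R) and 1 fell (GIPR; median log2 -0.95), and none of these calls held without stripped replicate 1. Of 20 cAMP signalling genes tested, 2 rose and 4 fell (median log2 -0.03): PRKACB, a catalytic subunit of protein kinase A, rose by log2 1.55 ± 0.32 (SE, edgeR adjusted p 0.0115), and the adenylyl cyclase gene ADCY2 changed by -2.41 ± 0.35 (SE, edgeR adjusted p 0.00300). Without stripped replicate 1 the genes that fell were 2, and without androgen replicate 2 they were 2 and the riser was 1.

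For C1orf87, 16 of 20 EF-hand genes were tested, 3 rose and 1 fell (median log2 0.13). EFCAB1 rose most, from 0 and 1 reads to 7 and 29 (log2 4.89 ± 1.40, SE). It passed the count filter through androgen libraries alone, so no p is given, and it lost its call without either stripped library. The gene that fell was S100A6, and CALM2 was the other riser. S100P, a small calcium-binding protein gene, rose from 6.17 ± 3.34 to 57.4 ± 1.33 CPM (SD, n = 2 each; log2 3.22 ± 0.50, SE, edgeR adjusted p 0.00407), and without stripped replicate 1 it was the sole riser with none falling. Of 18 motile cilia genes 13 were tested, 0 rose and 1 fell (RFX3, a ciliary transcription factor; median log2 -0.36), and that call was lost without any of the 4 libraries. The ciliated cell markers FOXJ1, DNAI1, RSPH1 and TEKT1 (3 of 4 detected, TEKT1 at 0) summed to 5.56 to 9.96 CPM in ACP stripped and 2.45 to 5.63 with androgen. Of 10 estrogen-induced genes tested, 0 rose and 1 fell (IGFBP4; median log2 0.09), and it did not pass without stripped replicate 1.

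Known androgen-induced genes were the reference for the added hormone. All 20 were tested, 13 rose and 0 fell (median log2 1.31), and 7 rose without stripped replicate 1. STEAP4, a metalloreductase gene, rose most (log2 6.83 ± 1.19, SE, edgeR adjusted p 0.00611) and lost its call without stripped replicate 1. FKBP5, a steroid receptor cochaperone gene, rose from 91.7 ± 41.3 to 911 ± 203 CPM (SD, n = 2 each; log2 3.31 ± 0.35, SE, edgeR adjusted p 9.74e-04). Replicates were not alike in all of them: KLK3, which encodes prostate-specific antigen, held 79628 and 19182 reads in androgen replicates 1 and 2, where PRR4 held 800 and 1137. For stripped against control on ACP, 0 of 103 genes on the 9 lists passed with edgeR, 9 passed with DESeq2 (5 higher, 4 lower), and 20 had an unadjusted p under 0.05 (11 higher, 9 lower). On plastic, with 1 stripped library whose spread is taken from the other groups, edgeR called 1 gene of the lists, TMPRSS2 (log2 -2.56 ± 0.48, SE, adjusted p 0.0476), and DESeq2 called 4 higher and 5 lower. The number of calls over all genes there went from 139 to 3 with a replicate block. For androgen against stripped, where a direction held 0 calls with edgeR, DESeq2 also called 0 and no gene had an unadjusted p under 0.05, except that 1 androgen-induced gene was lower by both measures.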

How the data were processed

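The deposited values were read counts per gene symbol in 26336 rows and 34 libraries, made by the authors with STAR and HTSeq on hg19, per the submitters' processing notes; the sources used here give no versions, annotation or strand use. The 3 genes and the gene lists were chosen with earlier results of these data known. Counts were tested with edgeR 4.0.16 in R 4.3.3 (quasi-likelihood F test, TMM, filterByExpr with a minimum count of 10, Benjamini-Hochberg adjusted p below 0.05), in 1 fit per line for comparisons within it and in a fit of all 34 libraries between lines. All 3 genes passed the filter in the VCaP fit and the fit of all lines, GHRHR alone in the LNCaP and MDAPCa2a fits, and none in RWPE, where they are given by reads. Ratios have exact 95% conditional binomial intervals, and a group at 0 reads is set at 3. Named were the members, the genes overlapping or nearest to them, the 5 most like each (1 is not reported here), cell type markers, and the largest riser and faller of each list. Further list members were named after their values were seen. Alternatives were RLE scaling, no count filter, a replicate block, a fit of all lines, DESeq2 1.42.0, raw library totals and leaving out each library. Scripts were tested on simulated data. Replicate numbers were not used as pairs in the main fits, and the labels name no shared culture or day. Deviations from group means correlated at -0.297 to 0.214 over 6 pairs of VCaP groups, -0.177 to 0.251 over 10 of LNCaP, -0.339 to 0.423 over 6 of MDAPCa2a and 0.0228 for 1 of RWPE. These correlations cannot settle whether replicates of the same number shared a batch. The comparison of lines with androgen and that of the members between surfaces in stripped VCaP were planned as tests and are given as descriptions. So were the GHRHR comparisons in LNCaP and MDAPCa2a that are given with no p. Sequences came from RefSeq (GRCh38.p14).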

Additional observations from a re-analysis of the deposited data

How the results depend on the processing

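The 9 fitted differences between VCaP and the other lines with androgen kept their direction under every alternative run. For GHRHR in VCaP, androgen against stripped was log2 1.75 to 2.31 with a library left out, the highest without ACP stripped replicate 2, and for C1orf87 androgen against ACP control was 3.43 to 3.73. GHRHR in plastic control was at least 37.4-fold above plastic stripped with RLE size factors and 36.5-fold with raw library totals, and its VCaP level with androgen was 2.60 CPM with raw totals. The stripping difference of MDAPCa2a and LNCaP passed without the count filter (log2 5.62, edgeR adjusted p 0.00693) and with DESeq2 (5.80, adjusted p 0.0286), and ran from 4.86 to 7.57 without 1 library; the cause was not tested. With a replicate block GHRHR in VCaP was -3.01 for stripped against control on ACP and 1.95 for androgen against stripped, and the block changed no call of a member. Counts of genes called in VCaP moved with the setting: 3 (replicate block) to 1561 (fit of all lines) for stripping on plastic, 0 (without ACP control replicate 1, ACP control replicate 2 or ACP stripped replicate 1) to 1057 (fit of all lines) for stripping on ACP, 766 (without androgen replicate 2) to 4545 (fit of all lines) for androgen, and 1 to 72 for ACP against plastic. In LNCaP they ran from 310 to 2193 and 191 to 1732 for stripping on plastic and ACP, 201 to 2028 for androgen, and 0 to 2933 and 66 to 1827 for the surface in control and stripped serum, and in MDAPCa2a from 0 to 855, 0 to 320 and 0 to 9 for stripping, surface and androgen. For the difference of stripping effects the range was 151 to 492. At these depths a VCaP group with 0 reads allows up to 0.144 CPM.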
